A study of Macaca mulatta with 2 samples.

Results

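The chemokines and chemokine receptors are 56 of the 24037 features counted in a rhesus macaque (Macaca mulatta) trabecular meshwork study, 34 ligands and 22 receptors. They were taken by symbol: every feature whose name is CCL, CXCL, XCL or CX3CL with a number, and every one named CCR, CXCR, XCR, CX3CR or ACKR with a number. Of the 56, 52 carry their symbol in the deposited tables, and CXCL12, CCL7, CCL15 and CXCL5 take theirs from a reference table of gene identifiers. The trabecular meshwork is a porous drainage tissue at the front of the eye, and 1 library was made from meshwork labelled glaucoma and 1 from meshwork labelled normal. Both were dissociated with collagenase and counted as single cells with the 3′ chemistry of 10x Genomics. The labels give no age, sex, number of animals, cause of the glaucoma or treatment for either library, and list glaucoma under genotype with no allele named. With 1 library per group there is no replicate, so no difference below is tested against variation between animals. Every interval covers counting error only.

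Chemokines are small secreted proteins that bind to surface sugars and steer leukocytes through receptors coupled to G proteins. Some are made constantly and position cells in resting tissue, such as CXCL12 and CCL21, while others, such as CCL2 and CXCL2, are switched on by inflammatory signals. The atypical receptors, named ACKR, bind chemokines without signalling through G proteins and mostly remove them. The pairings named below are known mainly from human and mouse.

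After filtering, 8337 cells of the glaucoma library and 5385 of the normal library were kept, holding 30011671 and 21696437 UMIs (unique molecular identifiers, 1 per captured RNA molecule), with medians of 2751 and 2702 UMIs per cell. A level below is a gene's summed UMIs per 1000000 UMIs of a cell class in 1 library (CPM). UMIs tag the 3′ end of each molecule and were not scaled by gene length. Cells were grouped into 25 clusters without using the 56 genes, and clusters were named "X-like" from marker genes. The glaucoma and normal libraries gave 1693 and 773 meshwork-like cells, 1443 and 1687 stromal fibroblast-like, 705 and 1053 muscle-like, 522 and 333 pericyte-like, and 639 and 307 vascular endothelium-like cells. They also gave 632 and 152 macrophage-like, 323 and 112 T or NK cell-like, 875 and 574 non-myelinating Schwann cell-like and 203 and 243 myelinating Schwann cell-like cells. These 9 classes were compared between libraries. A cluster of 550 and 33 cells is called lymphatic-type endothelium-like because MMRN1, FLT4 and STAB2 mark it. PROX1, a defining lymphatic factor, was low there at 24.3 and 44.8 CPM, and LYVE1, another, had no UMI. Of the other listed markers, NTS had none either, PKHD1L1 had 26.83 and 78.35 CPM, and FOXC2 was higher in fibroblast-like cells. RELN had 17.4 and 11.2 CPM, against 201.6 and 226.4 CPM in myelinating Schwann cell-like cells. FLT4 had 164.4 and 257.4 CPM in the lymphatic-type cells, but also 52.0 and 116.4 CPM in vascular endothelium-like cells. Cluster 10, with 596 and 72 cells and led by WIF1, BMP3 and MGARP, stayed unnamed. The libraries share 17 barcode sequences, 11 of them among the kept cells.

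Chemokine RNA in these cells was dominated by a few genes. The 34 ligands had 162252 UMIs over both libraries and the 22 receptors 8060. The 5 most abundant ligands, CXCL14, CCL26, CCL21, CCL2 and CCL4L1, held 89.5% of the ligand UMIs. At the other end, 4 ligands (CCL7, CCL14, CCL16 and CXCL5) and 2 receptors (XCR1 and CCR8) had no UMI in either library. Another 7 ligands and 8 receptors had 1 to 19 UMIs. In all, 31 members reached 20 UMIs over both libraries in at least 1 compared class, in 103 pairs of gene and class.

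CXCL14, an ancient chemokine of epithelia and stroma for which no receptor is generally agreed, was the ligand of the meshwork cells. It reached 3836 CPM (95% Poisson interval 3799 to 3874) in meshwork-like cells of the glaucoma library against 3192 CPM (3146 to 3238) in those of the normal one. These cells held 88.8% and 83.6% of all CXCL14 UMIs, and 87.5% and 84.5% of them had at least 1. In macrophage-like cells, where CXCL14 stood at 12.8 and 11.2 CPM, 4.11% and 3.95% of cells had a UMI. The median depths behind these shares were 5553 and 7524 UMIs in meshwork-like cells against 4086.5 and 4321.5 in macrophage-like cells. With every cell thinned to 1000 UMIs the shares were 70.5% and 65.7% in meshwork-like cells and 0.642% and 0.676% in macrophage-like cells. Within the meshwork-like class the level moved from cluster to cluster without a common direction between libraries. Cluster 8 had 6192 CPM in the glaucoma library against 2686 CPM in the normal one, whereas cluster 3 had 3446 and 5729 CPM. Unnamed cluster 10 held CXCL14 at 1027 and 2215 CPM.

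CCL26 (eotaxin-3), a ligand of the eosinophil receptor CCR3, was the ligand of the fibroblasts. Stromal fibroblast-like cells had 2526 CPM (2478 to 2575) in the glaucoma library against 2043 CPM (2007 to 2078) in the normal one, and 73.1% and 66.7% of them had a UMI. They held 53.7% and 74.7% of all CCL26 UMIs. Meshwork-like cells followed at 398.2 and 640.8 CPM, a log2 ratio of -0.69 that turned to 0.41 with the same cluster weights in both libraries. Cluster 10 reached 1853 and 938.0 CPM and held 22.3% of the gene's UMIs in the glaucoma library but 1.56% in the normal library, where it had 72 cells. All 4 fibroblast-like clusters were above 1000 CPM in both libraries, the lowest being cluster 17 at 1302 and 1035 CPM. CCL24 (eotaxin-2), the gene next to CCL26 with no other protein-coding gene between them in the reference annotation (T2T-MMU8v2.0), was in other cells. Macrophage-like cells held 98.2% and 97.8% of its UMIs. In those cells CCL24 stood at 1190 and 1351 CPM, and in fibroblast-like cells it did not reach 20 UMIs over both libraries.

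**Figure D1:**
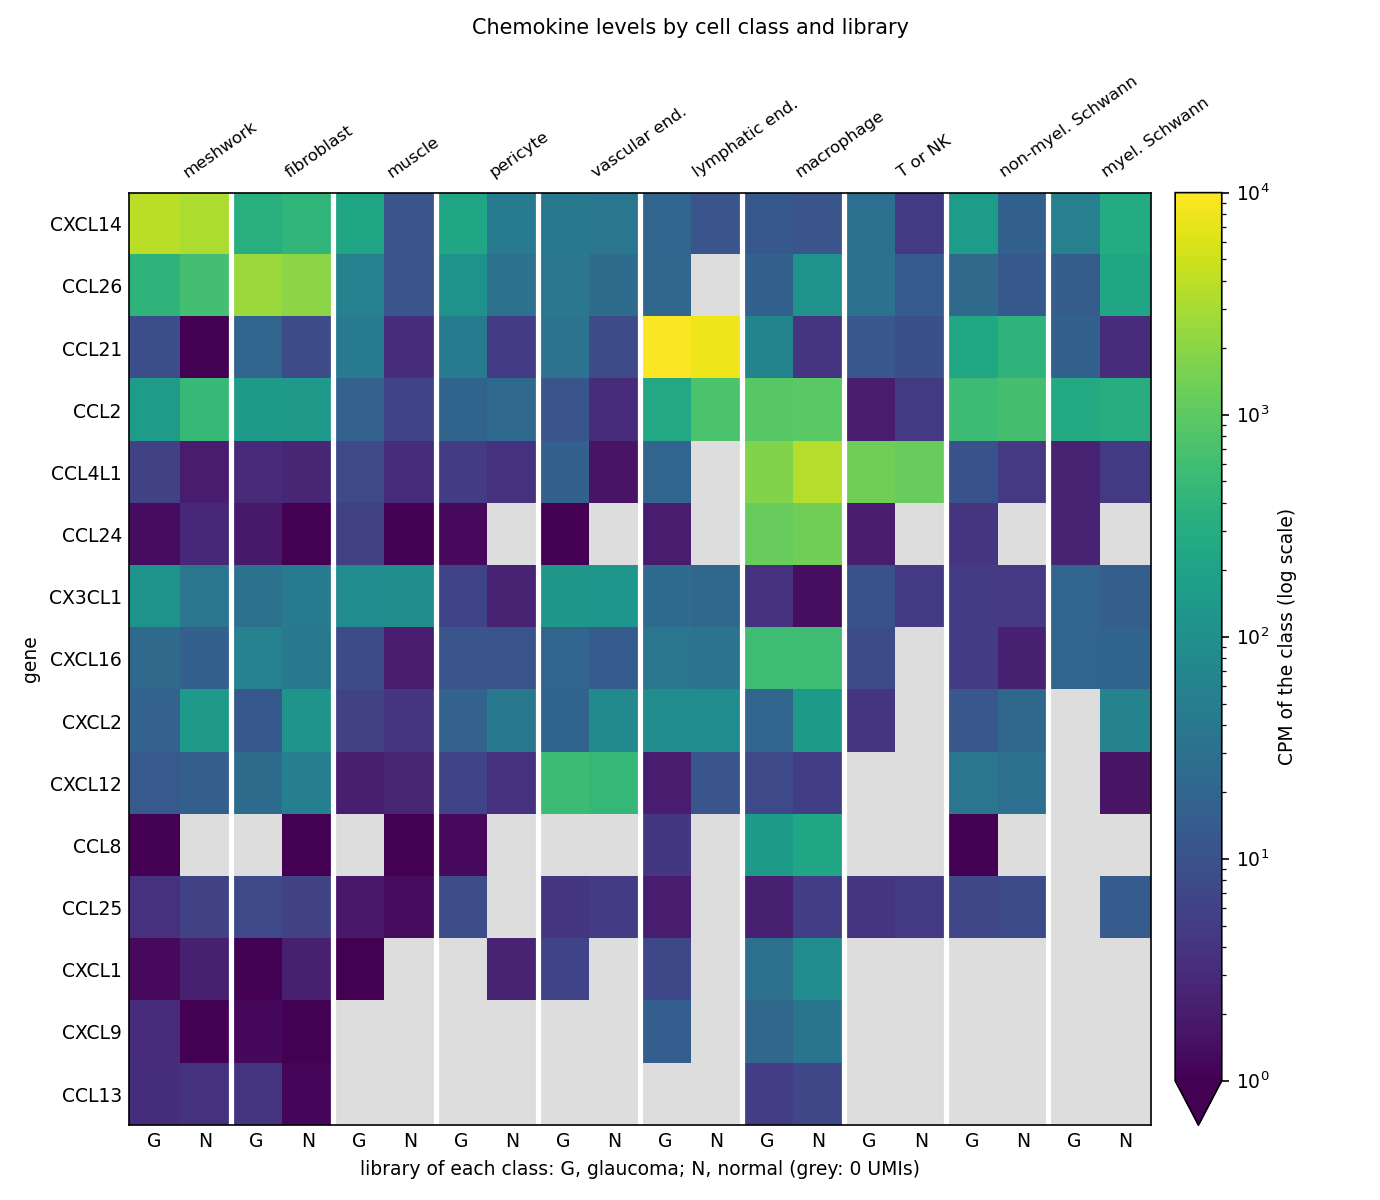
Levels of 15 ligands (rows) in 10 cell classes, with the glaucoma library (G) and the normal library (N) side by side; colour is CPM on a log scale from 1 to 10000, values under 1 take the lowest colour, and grey marks 0 UMIs. CXCL14 peaks in meshwork-like cells, CCL26 in fibroblast-like cells, CCL21 in lymphatic-type cells and CCL24 in macrophage-like cells, in both libraries.

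CCL21, which guides dendritic cells and T cells carrying CCR7 toward lymphatic vessels, was highest in the lymphatic-type cells. Its level there was 9511 CPM (9377 to 9647) in the glaucoma library against 7958 CPM (7383 to 8565) in the normal one, and 89.8% and 87.9% of these cells had a UMI. Over all kept cells CCL21 stood at 667 CPM in the glaucoma library against 53.2 CPM in the normal one, a log2 ratio of 3.65. Within the lymphatic-type cells the log2 ratio was 0.26 (0.15 to 0.37). The number of these cells, 550 against 33, moved with the whole-library level, and the labels do not say how the tissue was dissected. CCL21 was not among the markers used to name the cluster.

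Non-myelinating Schwann cell-like cells, the glia that ensheath small axons, were the other class with CCL21. Their level was 249.6 CPM (219.3 to 282.9) in the glaucoma library against 402.8 CPM (361.7 to 447.3) in the normal one. A UMI was found in 15.2% and 27.0% of these cells at median depths of 965 and 1312 UMIs. In the normal library they held 30.3% of all CCL21 UMIs, against 1.22% in the glaucoma library. At 1000 UMIs per cell, 14.3% and 23.1% of them had CCL21, and 477 and 158 shallower cells were left out. The other 8 compared classes lay between 0.955% and 2.69% in the glaucoma library and at or under 0.926% in the normal library at that depth. MMRN1, the most abundant lymphatic marker, had 2 and 0 UMIs in the non-myelinating Schwann cell-like cells, while it stood at 604.1 and 929.0 CPM in the lymphatic-type cells. Myelinating Schwann cell-like cells did not share the signal and did not reach 20 CCL21 UMIs over both libraries. CCL19, the gene next to CCL21 in the reference annotation and the other ligand of CCR7, had 22 and 5 UMIs in all, of which 18 and 5 were in fibroblast-like cells.

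**Figure D2:**
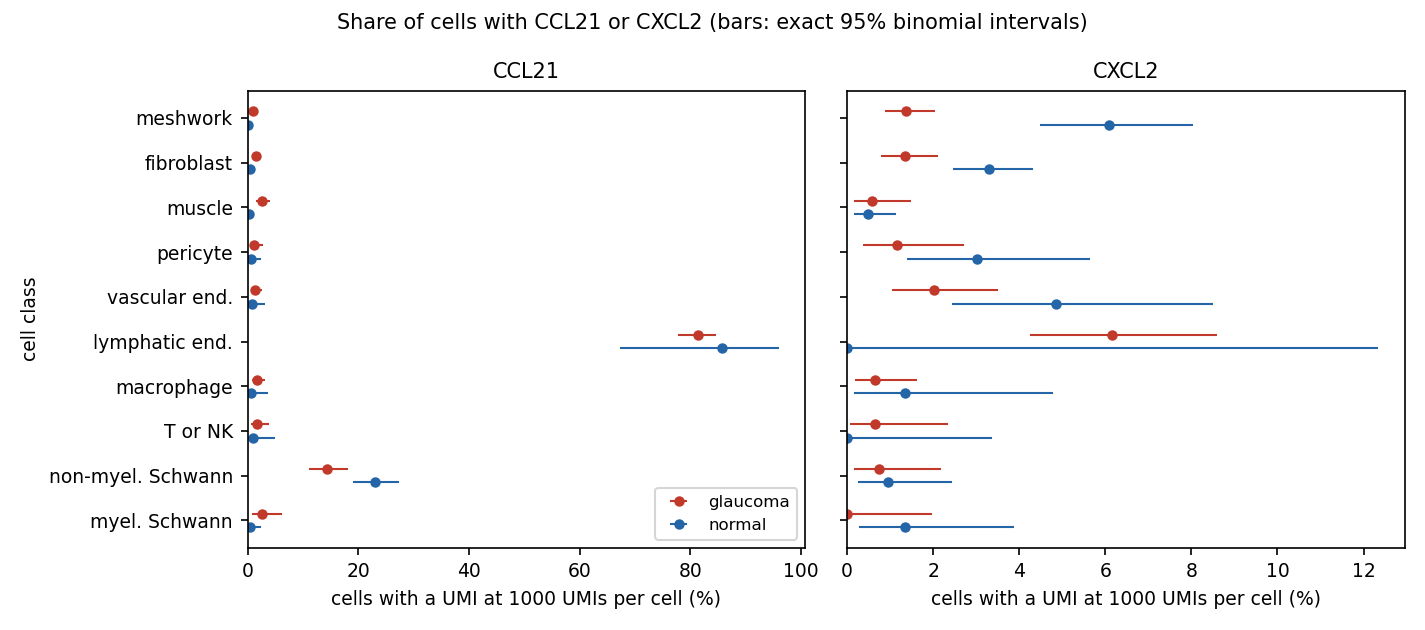
Share of cells with at least 1 UMI of CCL21 (left) or CXCL2 (right) after thinning every cell to 1000 UMIs, in percent, for 10 cell classes and both libraries; bars are exact 95% binomial intervals. CCL21 stands apart in lymphatic-type cells and, at 14.3% and 23.1%, in non-myelinating Schwann cell-like cells, and CXCL2 is more frequent in meshwork-like and fibroblast-like cells of the normal library.

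CXCL12, the resting-tissue ligand of CXCR4 and ACKR3, was a gene of the blood vessel lining. Vascular endothelium-like cells had 561.7 CPM (528.2 to 596.7) in the glaucoma library against 463.9 CPM (411.4 to 521.2) in the normal one. They held 71.8% and 36.6% of its UMIs. The rest of the normal library's CXCL12 lay largely in fibroblast-like cells, which held 43.1% of it at 53.1 CPM. The lymphatic-type cells had 4 and 1 CXCL12 UMIs, and vascular endothelium-like cells had CCL21 at 33.2 and 8.20 CPM, so each endothelium was low in the other's leading ligand.

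CX3CL1 (fractalkine), a membrane-bound chemokine that also acts as an adhesion molecule for cells carrying CX3CR1, was spread over muscle-like, vascular and meshwork-like cells. Vascular endothelium-like cells had 132.9 and 127.9 CPM, and muscle-like cells 89.6 and 97.5 CPM. Among the muscle-like clusters it divided sharply. Cluster 4, led by MYH11, CHRM3 and ATP2A1, had 119.1 and 126.7 CPM, and cluster 7, led by RERGL, ACTG2 and ACTA2, had 5.22 and 10.4 CPM. The muscle-like cells accounted for 13.3% of CX3CL1 UMIs in the glaucoma library against 43.9% in the normal one. Meshwork-like cells accounted for 55.7% and 18.7%.

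Macrophage-like cells had 14 ligands with at least 20 UMIs over both libraries, as did fibroblast-like and meshwork-like cells. CCL4L1, a copy of the inflammatory chemokine gene CCL4, stood at 1724 CPM (1674 to 1775) and 3591 CPM (3454 to 3733) in them, and they held 82.8% and 89.2% of its UMIs. T or NK cell-like cells were the other source, with 1373 and 1183 CPM. CCL3 and CCL4 have near-identical copies in the genome, so which copy these UMIs came from is uncertain. CCL24 was found in 80.9% and 65.8% of macrophage-like cells, but a single barcode carried 37.7% of its UMIs in the normal library. CXCL16, a membrane-bound ligand that also takes up oxidised lipids, was even, at 569.7 and 569.6 CPM. CCL8, a ligand of CCR2 and other receptors in human, stood at 151.8 and 237.1 CPM, with 95.5% and 98.8% of its UMIs in this class. Of its neighbours in the reference annotation, CCL11 had 29 and 25 UMIs in all, 21 and 23 of them in fibroblast-like cells and none in macrophage-like cells. CCL13 had 70 and 34 UMIs, of which meshwork-like cells had 35 and 22. Its level was 5.29 CPM (2.89 to 8.87) and 7.01 CPM (2.28 to 16.4) in macrophage-like cells against 3.35 CPM (2.34 to 4.66) and 3.79 CPM (2.37 to 5.73) in meshwork-like cells, with overlapping intervals.

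The macrophage-like clusters 14 and 16 differed in which ligand led, and did so the same way in both libraries. CCL24 was higher in cluster 14, at 1925 and 2056 CPM, than in cluster 16, at 748.1 and 396.4 CPM. CCL4L1 was higher in cluster 16, at 2150 and 5430 CPM, than in cluster 14, at 1014 and 2234 CPM. CCL8 went with CCL24, at 243.5 and 312.1 CPM in cluster 14 and 96.7 and 135.4 CPM in cluster 16. All 14 and 5 CCL13 UMIs of the class were in cluster 14. The receptor CXCR4 went with CCL4L1, at 488.8 and 369.9 CPM in cluster 16 against 186.1 and 214.6 CPM in cluster 14. CXCL16 and CCL2 were close between the clusters, with CCL2 at 835.1 and 897.4 CPM in cluster 14 and 945.0 and 1021 CPM in cluster 16. Cluster 14 is led by C1QC, CD14 and LYZ and had 301 and 105 cells, and cluster 16 by LYZ and RGS1, with 331 and 47 cells.

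CCL2, the main monocyte attractant, had no single source. Macrophage-like cells had the highest level among the compared classes, 903.8 CPM (868.0 to 940.7) and 949.7 CPM (879.5 to 1024). Non-myelinating Schwann cell-like cells followed at 543.1 and 672.2 CPM, and myelinating ones at 278.8 and 310.5 CPM. Meshwork-like cells had 158.1 and 470.9 CPM, and fibroblast-like cells 151.3 and 141.6 CPM. T or NK cell-like cells had 1 CCL2 UMI in each library. It was the leading ligand of both Schwann classes, making up 51.4% and 57.1% of the ligand UMIs in the non-myelinating cells.

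CXCL2, a neutrophil attractant that signals through CXCR2, was low in most classes of the glaucoma library and higher in the normal library. CXCL1 lay mainly in macrophage-like cells, which held 63.7% and 68.5% of its 124 and 92 UMIs. CXCL1, CXCL2 and CXCL3 are closely related in sequence, and the feature that the deposited tables call CXCL3 is named CXCL1 by the reference table, so their split is uncertain. CXCL9 had 137 and 29 UMIs, and in the normal library 1 macrophage-like barcode held all 26 of that class's UMIs. The remaining ligands were scarce. CCL25 had 119 and 106 UMIs, CCL27 26 and 30, CCL23 20 and 11, CCL20 17 and 8, CCL3 22 and 4, CXCL3 22 and 5, CCL17 11 and 1, CCL5 9 and 3, CXCL10 6 and 1, CCL28 4 and 8, CCL1 4 and 2, CXCL13 3 and 1 and CCL18 1 and 1. CXCL8, CXCL6, CXCL11, CXCL17, CCL22 and XCL1 had no feature of that name and are not analysed here.

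Receptors of circulating leukocytes were found where blood-derived cells were. CXCR4, the receptor of CXCL12, reached 991.2 CPM (905.0 to 1083) in T or NK cell-like cells of the glaucoma library and 955.7 CPM (828.5 to 1097) in those of the normal library. Macrophage-like cells had 375.3 and 280.6 CPM. A CXCR4 UMI was found in 65.9% and 63.4% of T or NK cell-like cells at median depths of 1352 and 1728 UMIs, against 1.30% and 1.29% of the deeper meshwork-like cells. Vascular endothelium-like cells had 29.5 and 31.2 CPM.

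CX3CR1, CCR1 and CXCR2 lay in macrophage-like cells, CXCR6 in T or NK cell-like cells, and CCR6 in both. CX3CR1, the receptor of fractalkine, stood at 107.2 and 120.6 CPM in macrophage-like cells, which held 91.9% and 86.0% of its UMIs. Unnamed cluster 22, with 16 and 18 cells and led by CFD, S100A8 and S100A9, had a higher level, 260.9 CPM (119.3 to 495.2) and 286.0 CPM (156.4 to 479.9), on 9 and 14 UMIs. CCR1, a receptor shared by several inflammatory CC chemokines, stood at 57.0 and 84.2 CPM in macrophage-like cells. CXCR6, the receptor of CXCL16, stood at 75.6 and 99.4 CPM in T or NK cell-like cells. CCR6, the receptor of CCL20, had 36 and 11 UMIs in macrophage-like cells and 7 and 12 in T or NK cell-like cells, and CXCR2 had 30 and 7 in macrophage-like cells.

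For several abundant ligands the matching receptor was barely seen. CCR3, the receptor of CCL24 and CCL26, had 9 and 3 UMIs, although CCL26 alone had 19488 and 17137. CCR2, the main receptor of CCL2, had 3 and 3 UMIs, and CCR7, the receptor of CCL21, had 2 and 1. CXCR5 had 4 and 10, CXCR3 3 and 0, CCR4 2 and 1, CXCR1 2 and 0 and CCR9 1 and 0. At these counts no source cell can be named.

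The atypical receptors were the receptors of the structural cells. ACKR3, which binds CXCL12 and lowers its local level, had the most UMIs of any receptor, 2700 and 1330 UMIs. Vascular endothelium-like cells had 309.2 CPM (284.5 to 335.5) and 255.7 CPM (217.2 to 299.1), the highest level among compared classes in both libraries. Fibroblast-like cells followed at 242.3 and 102.9 CPM, muscle-like cells at 123.9 and 67.9 CPM and pericyte-like cells at 81.7 and 76.8 CPM. In muscle the ACKR3 pattern was the reverse of CX3CL1: cluster 7 had 393.5 and 276.4 CPM and cluster 4 had 7.90 and 1.30 CPM. Meshwork-like cells had 9.29 and 13.9 CPM, although they were the deepest of the compared classes.

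ACKR2, which clears inflammatory CC chemokines, was highest in the lymphatic-type cells, at 99.9 CPM (86.5 to 114.7) and 123.1 CPM (61.5 to 220.3). Meshwork-like cells had 6.80 and 11.5 CPM. ACKR4, which clears CCL19, CCL21 and CCL25, was mainly in fibroblast-like cells, at 21.0 and 14.2 CPM, with 60.0% and 74.8% of its UMIs. ACKR1, known for binding many chemokines on venules and red cells, had 9 and 27 UMIs. CCR10, the receptor of CCL27 and CCL28, had 111 and 29 UMIs and no class in which it exceeded 10 CPM among those compared.

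**Figure D3:**
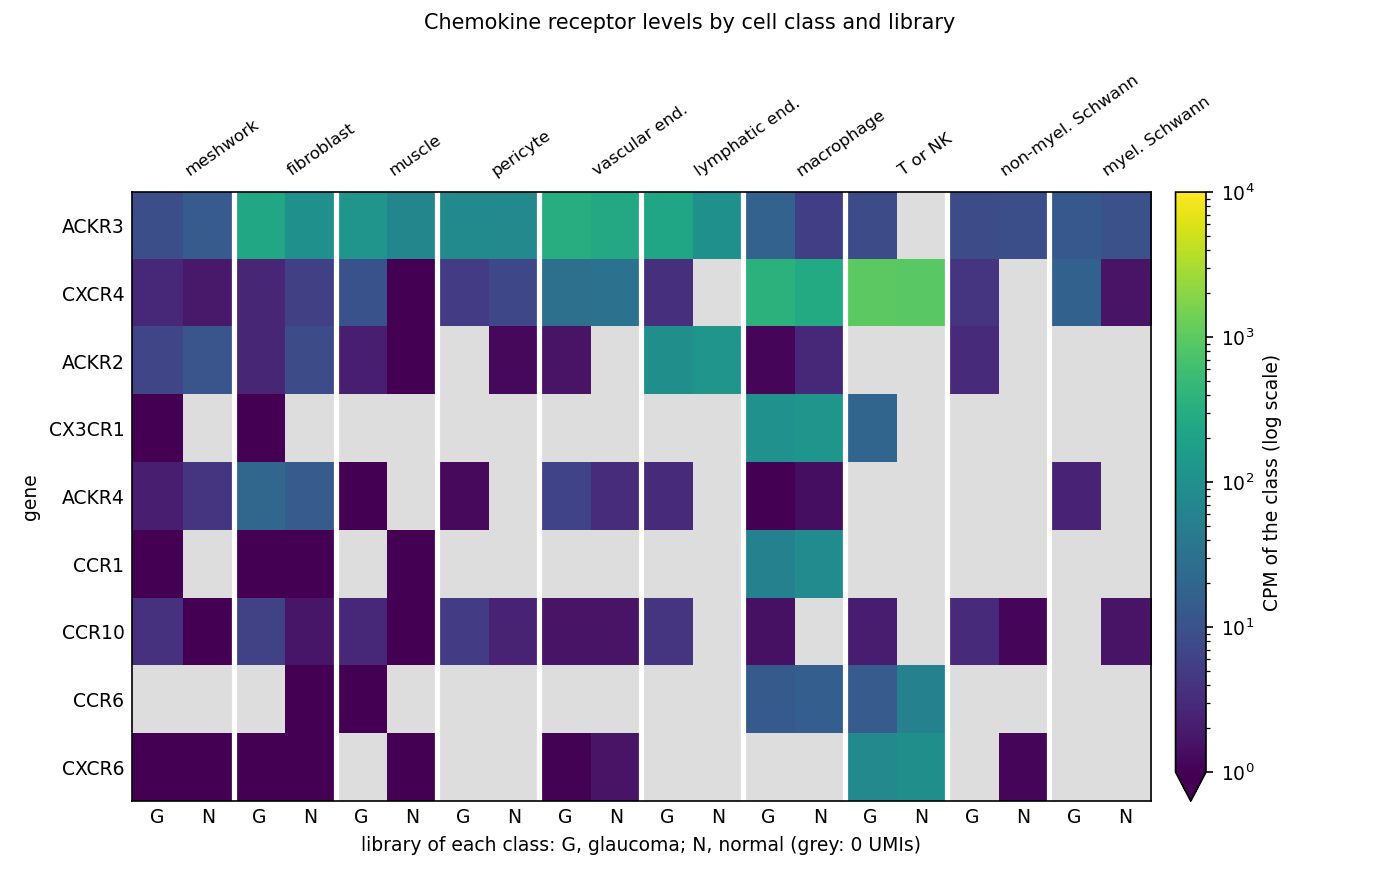
Levels of 9 receptors (rows) in 10 cell classes for the glaucoma (G) and normal (N) libraries; colour is CPM on a log scale from 1 to 10000, values under 1 take the lowest colour, and grey marks 0 UMIs. ACKR3 spans vascular, fibroblast-like, muscle-like and pericyte-like cells, whereas CXCR4, CX3CR1, CCR1 and CXCR6 sit in macrophage-like and T or NK cell-like cells.

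Between the libraries a gene was called higher or lower in the glaucoma library where its CPM within a class differed at least 2-fold, the 95% counting interval of the ratio excluded 1 and it had at least 20 UMIs over both libraries. Of the 103 measured pairs of gene and class, 26 were higher and 17 lower. In meshwork-like cells 5 of 19 measured members were higher and 3 lower, where 7.61% and 7.67% of all measured features were. In fibroblast-like cells 5 of 19 were higher and 5 lower, against 3.18% and 7.52% of all features. In macrophage-like cells 2 of 21 were higher and 4 lower, against 3.80% and 7.91%. In muscle-like cells 8 of 12 were higher and none lower, against 6.33% and 5.54%. Vascular endothelium-like cells had 2 higher and 1 lower of 11, against 2.59% and 4.65%, and pericyte-like cells 3 and 1 of 6, against 3.85% and 6.94%. Myelinating Schwann cell-like cells had none higher and 3 lower of 5, against 3.12% and 7.53%, and non-myelinating ones 1 higher and none lower of 6, against 5.00% and 7.24%. None of the 4 members measured in T or NK cell-like cells was called, where 5.68% of features were higher and 3.65% lower. All classes of a library share its tissue and preparation, so calls of 1 gene in several classes are not independent. The median log2 ratio of genes with at least 100 UMIs over both libraries was -0.14 in fibroblast-like, -0.12 in muscle-like and 0.15 in T or NK cell-like cells and within 0.1 of 0 in the other 6 classes.

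Several of the leading ligands were not called. CXCL14 in meshwork-like cells had a log2 ratio of 0.27 (0.24 to 0.29) and CCL26 in fibroblast-like cells one of 0.31 (0.27 to 0.34). CXCL12 in vascular endothelium-like cells had 0.28 (0.09 to 0.47). In macrophage-like cells CCL24 had -0.18 (-0.29 to -0.08), CCL2 -0.07 (-0.20 to 0.05) and CXCL16 0.00 (-0.16 to 0.16). CXCR4 in T or NK cell-like cells had 0.05 (-0.19 to 0.30). Without the barcode that carried most CCL24 in each library, that gene's ratio was 0.47.

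CXCL2 was lower in the glaucoma library in 6 of the 8 classes where it was measured. Meshwork-like cells had 18.01 CPM (15.5 to 20.8) against 139.4 CPM (130.0 to 149.4), a log2 ratio of -2.95 (-3.19 to -2.72). With the same cluster weights in both libraries it was -2.18. A UMI was found in 3.78% of these cells in the glaucoma library against 18.9% in the normal one, and in 1.37% and 6.09% at 1000 UMIs per cell. Fibroblast-like cells had 12.6 CPM against 117.1 CPM, a log2 ratio of -3.22 (-3.66 to -2.82), and vascular endothelium-like cells -2.06 (-2.72 to -1.41). In pericyte-like cells the ratio was -1.21 (-2.23 to -0.28), and the call was lost with doublets kept, at -0.78, and with a stricter cell filter, at -0.75. Myelinating Schwann cell-like cells had no CXCL2 UMI in the glaucoma library against 38 in the normal one, which is at least 8.23-fold lower counting 3 UMIs as the floor of that class. Muscle-like cells, at 5.97 and 4.24 CPM, and non-myelinating Schwann cell-like cells, at 12.2 and 21.9 CPM, were not called. Lymphatic-type cells, outside the comparison for their 33 normal cells, had 88.4 and 89.5 CPM on 178 and 8 UMIs. The log2 ratio there was -0.02, with a wide interval of -1.03 to 1.22.

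In the meshwork-like and fibroblast-like classes the normal library's CXCL2 was concentrated. Cluster 8 of the meshwork-like cells had 164.6 CPM in the normal library and 21.6 CPM in the glaucoma library, and cluster 2 of the fibroblast-like cells had 207.5 and 12.5 CPM. The macrophage-like difference, 20.0 against 152.9 CPM, rested on few cells: 1.97% of the 152 normal cells had a UMI, and 1 barcode carried 53.2% of them. When the 56 genes were allowed into the clustering, the fibroblast-like ratio was -0.83 and no longer met the call, and with a stricter cell filter it was -1.39.

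CCL2 was lower in meshwork-like cells of the glaucoma library, at 158.1 CPM (150.6 to 165.9) against 470.9 CPM (453.5 to 488.9), a log2 ratio of -1.57 (-1.66 to -1.49). The difference ran the same way in clusters 3, 8 and 9, at 183.9 against 414.6, 251.4 against 509.2 and 95.6 against 248.8 CPM. Cluster 18 ran the other way on 6 and 3 UMIs, at 58.7 CPM (21.6 to 127.8) against 13.6 CPM (2.81 to 39.9), with overlapping intervals. With clusters 3, 8, 9 and 18 given the same weights in both libraries the log2 ratio was -1.08. CCL2 was called the other way in muscle-like cells, at 17.9 against 6.36 CPM, a log2 ratio of 1.49 (0.85 to 2.16), a call lost under 4 other settings. It was not called in the other compared classes where it was measured. Lymphatic-type cells, outside the comparison, had 262.3 against 738.7 CPM, a log2 ratio of -1.49 (-1.86 to -1.10).

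CX3CL1 in meshwork-like cells went the other way, at 114.0 CPM (107.6 to 120.6) against 37.0 CPM (32.2 to 42.3), a log2 ratio of 1.62 (1.41 to 1.84). Here the clusters were level. Cluster 9 had 171.7 and 196.0 CPM, cluster 3 had 92.8 and 83.9 and cluster 8 had 30.5 and 25.3. The libraries drew their meshwork-like cells from different clusters: cluster 9 gave 657 cells to the glaucoma library and 21 to the normal one, and cluster 8 gave 166 and 517. With the same cluster weights the log2 ratio was 0.04, and CX3CL1 was no longer called.

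**Figure D4:**
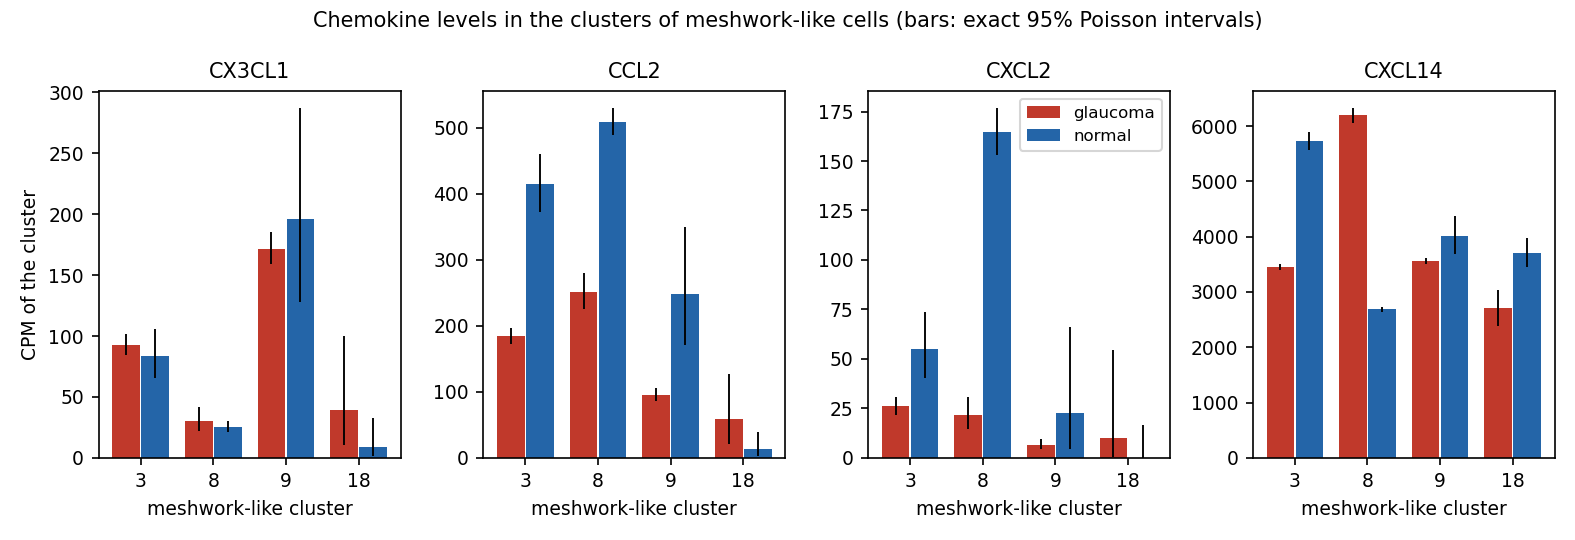
CPM of 4 ligands in the meshwork-like clusters 3, 8, 9 and 18 for the glaucoma (red) and normal (blue) libraries, with exact 95% Poisson intervals. CX3CL1 differs between clusters more than between libraries, CCL2 is higher in the normal library in clusters 3, 8 and 9 and CXCL2 in clusters 3 and 8 (cluster 9 has 3 normal CXCL2 UMIs), and CXCL14 has no common direction.

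The other meshwork-like calls were of scarce RNA. CCL21 had 96 and 4 UMIs there, CCL4L1 64 and 12, CCR10 39 and 2, CXCL9 34 and 1 and CCL24 14 and 17. For CXCL9 a single barcode held 52.9% of the glaucoma UMIs. CCL24 was called lower at -1.13 (-2.26 to -0.02) and lost that call under most other settings.

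In fibroblast-like cells ACKR3 was higher in the glaucoma library, at 242.3 CPM (227.5 to 257.8) against 102.9 CPM (95.1 to 111.2), a log2 ratio of 1.24 (1.09 to 1.38). Cluster 15 stood at 814.8 against 235.6 CPM and cluster 0 at 244.6 against 149.2 CPM, whereas cluster 17 stood at 58.0 against 246.2 CPM. With the same cluster weights the ratio was 0.94 and no longer called. Its ligand CXCL12 was lower, at 26.3 CPM (21.6 to 31.7) against 53.1 CPM (47.6 to 59.2), a log2 ratio of -1.01 (-1.34 to -0.70) that fell short of 2-fold under 5 other settings. CCL15 had no UMI in the glaucoma cells and 69 in the normal cells, at least 15.2-fold lower against a floor of 3 UMIs. Those 69 UMIs came from 0.356% of the normal cells, and 1 barcode held 34.8% of them. CCL13, CCL19 and CCR10 were higher on 17 and 7, 18 and 5, and 25 and 11 UMIs, and ACKR2 and CXCR4 lower on 11 and 53, and 11 and 36.

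CXCL14 in the same cells, at 336.6 and 428.2 CPM, differed between clusters and varied with the clustering. Cluster 17, with 58 and 99 cells, had 3153 against 117.5 CPM, whereas cluster 2 had 384.2 against 791.0 CPM. Cluster 15 had 138.1 against 42.0 CPM and cluster 0 had 50.3 against 31.8 CPM. The log2 ratio of the class was -0.35 as computed and 0.82 when the libraries were clustered separately. It was 2.72 when the 56 genes were allowed into the clustering. The meshwork marker list summed to 11940 and 11850 CPM in these fibroblast-like cells, and its part in that result was not tested.

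In macrophage-like cells CCL4L1 was lower, at 1724 against 3591 CPM, a log2 ratio of -1.06 (-1.13 to -0.99). The direction was the same in both clusters. The ratio fell just short of 2-fold, from -0.95 to -0.98, under 5 other settings: separate clustering, scaling within each library, resolution 0.5, cells thinned to 1000 UMIs and the top barcode of each library left out. CXCL1 was lower at 29.8 against 88.4 CPM, a log2 ratio of -1.57 (-2.06 to -1.07). ACKR3 was called higher at 1.69, on 20 and 2 UMIs in cluster 14 and 28 and 2 in cluster 16. That call was lost with a stricter cell filter, separate clustering, scaling within each library or the top barcode of each library left out. CCL26 was called lower on 46 and 79 UMIs, but 1 normal barcode held 93.7% of the 79, and without the top barcodes the log2 ratio was 1.03. The fibroblast marker list summed to 1817 and 1644 CPM in these cells.

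**Figure D5:**
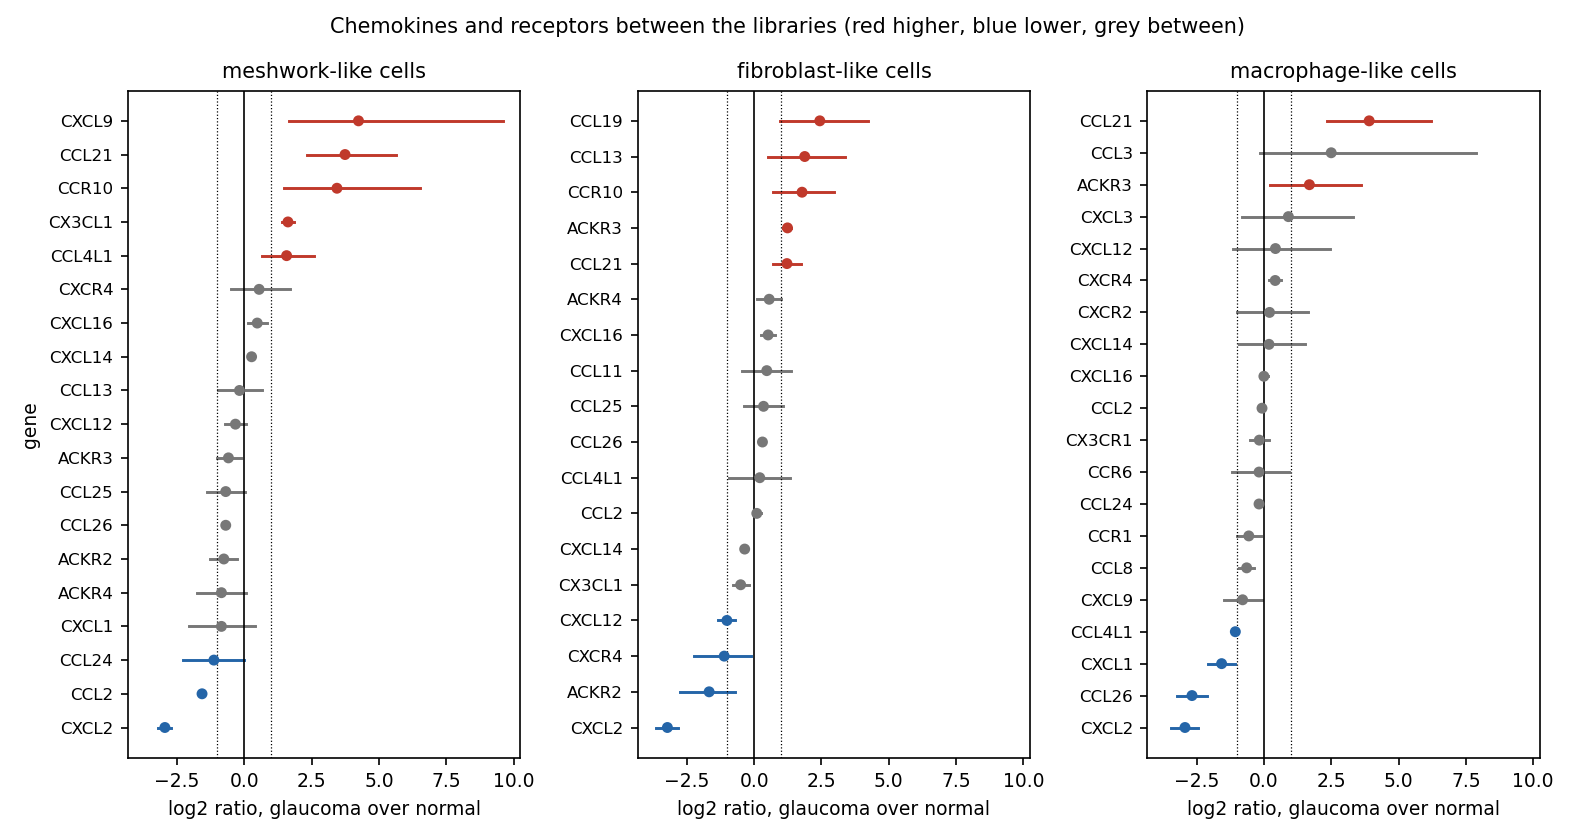
Log2 ratio of the glaucoma over the normal library (x axis) for each reported member with at least 20 UMIs in meshwork-like, fibroblast-like and macrophage-like cells; lines are 95% counting intervals, dotted lines mark 2-fold, and CCL15 in fibroblast-like cells, at 0 UMIs in the glaucoma library, is not drawn. CXCL2 is the lowest of the drawn members in all 3 classes, at -2.95, -3.22 and -2.93, the last resting on few normal cells.

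Several calls were of ligands in classes that are not their source, and the marker lists of the leading source class are given beside them. CCL21 was called higher in 6 of 7 classes, with log2 ratios from 1.22 in fibroblast-like to 3.91 in macrophage-like cells, and non-myelinating Schwann cell-like cells were the exception at -0.69. The list of 9 lymphatic markers was higher in the glaucoma library in fibroblast-like cells, at 74.1 and 31.4 CPM, in muscle-like cells, at 29.9 and 21.2 CPM, and in pericyte-like cells, at 26.8 and 7.31 CPM. It was lower there in meshwork-like cells, at 14.8 and 30.8 CPM, in macrophage-like cells, at 32.1 and 43.5 CPM, and in vascular endothelium-like cells, at 78.8 and 149.2 CPM. From 4 to 8 of the 9 genes were detected in these classes of the glaucoma library and from 2 to 8 in those of the normal library. In macrophage-like and fibroblast-like cells part of these sums came from genes without a UMI in lymphatic-type cells. In meshwork-like cells PKHD1L1 had 27 and 120 UMIs and FOXC2 90 and 41, and in vascular endothelium-like cells FLT4 had 97 and 71. The sums thus hold genes that other classes have, and their direction does not measure lymphatic-type RNA. LYVE1 made up 69 and 30 of the 85 and 31 list UMIs in macrophage-like cells. NTS made up 164 and 78 of the 307 and 197 in fibroblast-like cells. MMRN1 had 6 and 0 UMIs in meshwork-like, 5 and 0 in macrophage-like, 12 and 0 in muscle-like, 3 and 0 in pericyte-like, 4 and 1 in fibroblast-like and 10 and 7 in vascular endothelium-like cells. A single barcode held 53.0% of the glaucoma library's CCL21 UMIs in macrophage-like, 63.9% in pericyte-like and 42.0% in muscle-like cells. The part of RNA from lymphatic-type cells in these calls was not tested.

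CXCL14 was called higher in muscle-like cells, at 228.9 against 11.4 CPM, in pericyte-like cells, at 236.1 against 42.7 CPM, and in non-myelinating Schwann cell-like cells, at 157.9 against 17.3 CPM. The meshwork list, with 12 named genes, summed to 4260 and 2057 CPM in muscle-like, 862.6 and 811.9 CPM in pericyte-like and 690.8 and 456.9 CPM in non-myelinating Schwann cell-like cells. Most of the muscle-like CXCL14 was in cluster 21, with 79 and 21 cells, which has the meshwork genes CCK and CYTL1 among its leading genes beside ACTA2 and CNN1 and held 659 of the 728 glaucoma UMIs. Without that cluster the muscle-like CXCL14 level was 26.5 against 6.89 CPM, a log2 ratio of 1.94, and 7 rather than 8 members were called higher, CCL2 being lost. The others were CCL26, at 56.3 against 11.4 CPM with all clusters, and CCL21, CXCR4, CCL24, CXCL16 and CCL4L1, on 138 and 17, 32 and 5, 18 and 3, 27 and 11, and 24 and 17 UMIs. The macrophage list, with 10 of 13 genes detected in each library, summed to 81.4 and 19.5 CPM in muscle-like cells. In myelinating Schwann cell-like cells CXCL14 was lower, on 22 and 179 UMIs, and 1 normal barcode held 72.1% of the 179. The meshwork list summed there to 973.4 and 1950 CPM. CCL26, the fibroblasts' ligand, was lower in myelinating Schwann cell-like cells on 6 and 143 UMIs and higher in pericyte-like cells at 109.7 against 31.7 CPM. The list of 13 fibroblast markers summed to 726.9 and 2230 CPM in myelinating Schwann cell-like, 3329 and 2751 CPM in pericyte-like and 1793 and 2209 CPM in muscle-like cells. It moved in the direction of CCL26 in myelinating Schwann cell-like and pericyte-like cells and against it in muscle-like cells. In vascular endothelium-like cells CCL4L1 was higher on 31 and 1 UMIs, of which 1 barcode held 61.3%, and the macrophage list summed to 326.9 and 247.5 CPM. The part of meshwork, fibroblast or macrophage RNA in these calls was not tested.

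Genes that act before and after the chemokines were read from 4 lists, whose counts stand beside the shares of all features with at least 20 UMIs in the class. The libraries drew their meshwork-like cells from different clusters, and the ratios of these list genes are not given at the same cluster weights. The list of inflammatory inducers of chemokines also holds inhibitors such as NFKBIA and TNFAIP3. In meshwork-like cells 17 of its genes were measured, and 4 were lower and none higher in the glaucoma library, against 7.67% and 7.61% of all features. The median log2 ratio of the 17 was -0.65 against 0.00 over all those features. The lowest were IL6, an inflammatory cytokine, at -2.78 (19.6 against 134.8 CPM), and IL1A, an alarm cytokine, at -1.55, and the highest TRAF6 at 0.35 and NFKB2 at 0.29. NFKBIZ and IRF1 were the other genes lower. Fibroblast-like cells had 5 of 17 lower and none higher, against 7.52% and 3.18% of all features. The median was -0.43 against -0.15, from IL6 at -1.86 and NFKBIZ at -1.60 to TNFRSF1A at 0.10 and NFKB2 at 0.27. Macrophage-like cells had 5 of 19 lower and none higher, against 7.91% and 3.80% of all features. The 5 were IL6, NFKBIA, NFKBIZ, TNFAIP3 and CHUK, while TNF at 0.34 and IL1B at -0.21 were not called. The median was -0.61 against -0.10, from IL6 at -3.16 and TNFAIP3 at -2.48 to MYD88 at 0.45 and IL1A at 1.96, whose interval spanned 0. IL6 rested on 10 and 24 UMIs (-4.39 to -2.04) and TNFAIP3 on 12 and 18 UMIs (-3.67 to -1.34). CXCL2 was also called lower in these 3 classes, in macrophage-like cells on few normal cells. NFKBIZ was also lower in vascular endothelium-like, pericyte-like and myelinating Schwann cell-like cells, where CXCL2 was lower. It was lower too in non-myelinating Schwann cell-like cells, at -1.27, where CXCL2 was not called. The same held in T or NK cell-like cells, at -1.32, where CXCL2 was not measured. In muscle-like cells neither gene was called. A link between CXCL2 and the listed genes was not tested.

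Of the genes downstream of the receptors, 2 of 15 were lower in meshwork-like cells, where 7.67% of all features were, and the median was -0.02 against 0.00. They were PREX1 at -1.63 and JAK2 at -1.33, and the highest were GNB2 and GRK2, both at 0.68. In fibroblast-like cells 2 of 16 were higher, where 3.18% of all features were, and the median was 0.18 against -0.15. They were RGS1, which shortens G protein signals, at 1.43 and the G protein subunit GNAI2 at 1.21. RGS1 rested on 25 and 14 UMIs and GNAI2 on 46 and 30. RGS1 stood at 6.03 and 2.23 CPM in fibroblast-like cells, against 2332 and 2194 CPM in macrophage-like cells. The part of macrophage RNA in the RGS1 call was not tested. The lowest in fibroblast-like cells were RGS16 at -0.93 and PREX1 at -0.88. In macrophage-like cells 1 of 17 was lower, where 7.91% of all features were, and the median was -0.29 against -0.10. It was ELMO1 at -1.17, with JAK2 at -0.87 and ARRB1 at 0.94 and GRK2 at 0.72 at the ends.

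Among leukocyte adhesion genes, VCAM1, an endothelial and stromal docking protein for leukocyte integrins, was higher in meshwork-like cells at 37.2 against 10.8 CPM, a log2 ratio of 1.78 (1.39 to 2.18), the only call among 8, where 7.61% of all features were higher. The median of the list was 0.22 against 0.00. The lowest were CD99 at -0.21 and PECAM1 at -0.14. In fibroblast-like cells ITGB7 at -1.47 and JAM3 at -1.27 were lower among 9, where 7.52% of all features were, with a median of 0.35 against -0.15. VCAM1 stood at 0.80 and ITGA4 at 0.60. In macrophage-like cells none of 7 was called, with a median of 0.11 against -0.10, from ITGAM at -0.57 and ITGAL at -0.03 to PECAM1 at 0.23 and CD99 at 0.26.

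Of the genes that shed, trim or present chemokines, MMP2, a protease that can cut CCL and CXCL proteins, was lower in meshwork-like cells at 235.5 against 586.4 CPM, a log2 ratio of -1.32 (-1.39 to -1.24). It was the only call among 13, where 7.67% of all features were lower, and the median was -0.23 against 0.00. SDC4 stood at -0.98 and EXT1 at 0.37. ADAM17, a sheddase of CX3CL1, stood at 0.74 (-0.13 to 1.69) on 45 and 15 UMIs. Fibroblast-like cells had no call among 14 and a median of -0.07 against -0.15, from NDST1 at -0.92 and HS2ST1 at -0.89 to EXT1 at 0.14 and MMP2 at 0.31. Macrophage-like cells had MMP9 at -1.89 and SDC2 at -1.31 lower among 9, where 7.91% of all features were, and a median of -0.71 against -0.10, with EXT2 at 0.02 and HS2ST1 at 0.43 highest.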

How the data were processed

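The deposited files hold whole-number UMI counts per gene and barcode for 2 libraries, which the authors made with Cell Ranger (version 4.0 per the submitters' processing notes, 6.0.0 per the file headers). The genome build is not given in the sources used here, so no coordinates are printed. The 10624 glaucoma and 7028 normal barcodes hold 38765808 and 25042621 UMIs. Of 24037 features, 15580 are named in the files and 873 by the reference table.

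Cells with at least 500 genes and under 20% mitochondrial UMIs were kept, and Scrublet (scanpy 1.11.5) removed 296 and 45 doublets (3.43% and 0.829%). Leiden clustering (igraph 0.11.9, resolution 1) used 2000 variable genes without the members, 30 components and 15 neighbours. Classes rest on at least 3 markers. The lymphatic-type name was allowed, after the clusters were seen, although general endothelial genes lead that cluster. Counts were summed per class and library, with exact 95% Poisson, binomial or conditional intervals. Members, lists and markers were chosen with earlier results of these data known. Every member with 20 UMIs in a compared class is given a value or a count, and of each list the 2 highest and 2 lowest ratios in the classes described, apart from 1 member and 1 list gene that are not reported here.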

Additional observations from a re-analysis of the deposited data

How the results depend on the processing

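No paired analysis was possible because each group has 1 library. The 26 higher and 17 lower calls became 11 and 10 with a minimum of 100 UMIs and 9 and 9 with cells thinned to 1000 UMIs, both of which measure fewer genes, and stayed within 1.5 times under all other settings run. CCL26 in macrophage-like cells turned to 1.03 without the top barcode of each library. CXCL16 in muscle-like cells turned to -0.04 with a stricter cell filter and -0.03 when thinned, CXCR4 in fibroblast-like cells to 0.45 when thinned, CCL21 in fibroblast-like cells to -0.26 with the stricter filter and CXCL14 in myelinating Schwann cell-like cells to 1.88 at resolution 0.5. The causes were not tested. Leaving out the muscle-like cluster with CYTL1 was chosen after seeing the data. Dissection, animal and library cannot be told apart, and genes under 20 UMIs per class could not be compared at this depth.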
